A study of Mus musculus with 6 samples.

Results

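The integrin and laminin genes of mouse skin were compared between GC13 mice, which carry a transgene that overexpresses Hoxc13, and FVB mice, an albino inbred strain. Members were all probe sets whose gene symbol names an integrin alpha or beta chain or a laminin alpha, beta or gamma chain, with the Lamp genes and the Itgb1bp genes left out. This rule uses names only and found 45 probe sets of 28 genes among the 12488 probe sets of the array: 31 probe sets of 19 integrin genes and 14 of 9 laminin genes. Each of the 6 single-sample arrays measured total RNA of whole skin at postnatal day 5, from 3 GC13 samples and 3 FVB samples. The labels give neither the promoter of the transgene, nor the strain background of GC13, nor whether each sample was a different mouse, so the p-values reflect only how far these samples differ, which may be technical. Hoxc13, a homeobox gene, acts as a transcription factor in the hair follicle, and the comparison asks how its overexpression alters skin gene expression. No probe set of the annotation used here is named Hoxc13, so the transgene itself was not analysed here.

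Integrins are cell surface receptors made of an alpha and a beta chain, which bind matrix proteins or other cells outside and the cytoskeleton inside. Laminins are cross-shaped or T-shaped trimers of an alpha, a beta and a gamma chain and form the sheet on which basement membranes are built. In the epidermis, integrin alpha 6 beta 4 sits in hemidesmosomes and binds laminin-332, which contains the Lama3 and Lamb3 products, while integrin alpha 3 beta 1 binds the same laminin at focal contacts. Hair follicle growth, vessels, nerve, muscle and migrating leukocytes each use other pairs. Whole skin mixes all of these, so fewer cells of a type and less RNA per cell cannot be told apart.

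Intensities are the deposited linear values, and each log2 fold change gives GC13 minus FVB on the log2(intensity + 2) scale with each array centred on its median, with its standard error (SE) from the limma fit. The deposited intensities summed to between 1640876 and 1736141 on the GC13 arrays and between 1626361 and 1644444 on the FVB arrays. The arrays are few, which limits the precision. GC13 replicate 2 stood apart: the ratio of 3' to 5' signal of the Gapdh control, which is higher where messenger RNA has lost its 5' part, was 2.22, 9.58 and 2.19 on GC13 replicates 1, 2 and 3, against 0.931, 0.958 and 0.894 on the FVB arrays. Eif2s3y, a Y-linked gene, had intensities of 3.25, 143 and 4.60 in GC13, against 69.4, 98.9 and 79.6 in FVB, and none of the 28 genes lies on the X or Y chromosome. Uty, also Y-linked, had 4.87, 34.7 and 7.19 in GC13, against 13.3, 15.2 and 13.8 in FVB. The X-linked gene Xist had 9.15, 1.07 and 12.6 in GC13, against 9.95, 11.9 and 11.7 in FVB. By the Gapdh ratio and by the Y-linked genes, RNA quality and possibly sex cannot be told apart from the line. GC13 replicates 1 and 3 lay below every FVB array for Eif2s3y and Uty, and above every one for the Gapdh ratio. Every value given without GC13 replicate 2 is therefore fully confounded with these differences. The 3' to 5' ratio of beta-actin, at 1.26, 3.80 and 1.43 in GC13 against 1.36, 1.26 and 1.16 in FVB, was far from the FVB arrays on GC13 replicate 2 alone. The tissue label was checked against markers. Krt1, of the suprabasal epidermis, had 3661, 1489 and 3338 in GC13, against 1435, 1216 and 1216 in FVB. Krt5 and Krt14, which define basal keratinocytes, were dim, with Krt5 at 7.10, 2.34 and 10.6 in GC13 against 4.13, 1.62 and 2.30 in FVB, while the basal genes Trp63 and Col17a1 were bright on every array.

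No integrin or laminin probe set differed between GC13 and FVB at an adjusted p under 0.05 (limma, Benjamini-Hochberg over 9316 probe sets). Of the 45 member probe sets, 34 of 24 genes were in the fit, and 0 of these 34 were called higher, against a background of 0.0859% of all probe sets, and 0 were called lower, against 0.419%. At an unadjusted p under 0.05, 2 of 34 members (5.88%) were higher, against 8.52% of all probe sets, and 0 were lower, against 6.96%. The direction leaned one way: 30 of 34 members (88.2%) had a log2 fold change above 0, against 57.3% of all probe sets, and the numbers were 26 of 34 without centring (50.7% of all probe sets), 27 of 34 with quantile normalization (52.9%) and 25 of 34 without GC13 replicate 2 (52.0%). Their median log2 fold change was 0.29, against 0.081 over all probe sets. The size of that median depended on dim members and on the pseudocount: it was 0.16, against 0.052, over the 22 members left when the dimmer 50% of probe sets were removed, 0.19, against 0.066, at a pseudocount of 16, and 0.13, against 0.052, at 32. Itgal, Itgb2l and Lama1 were in the fit only through GC13, since their FVB means of 5.48, 6.67 and 6.24 lay below the filter's limit of 6.86, so a higher GC13 mean was a condition of their being counted. With no filter, 41 of 45 members had a log2 fold change above 0, against 63.0% of all probe sets. The share over all rose from 57.3% to 63.0% when dim probe sets were added, so these lay above 0 more often. For dim members 63.0% is therefore too low a background. Members share genes, arrays and cells, so these shares are descriptions without a test. The plot of cumulative shares shows this shift.

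**Figure D1:**
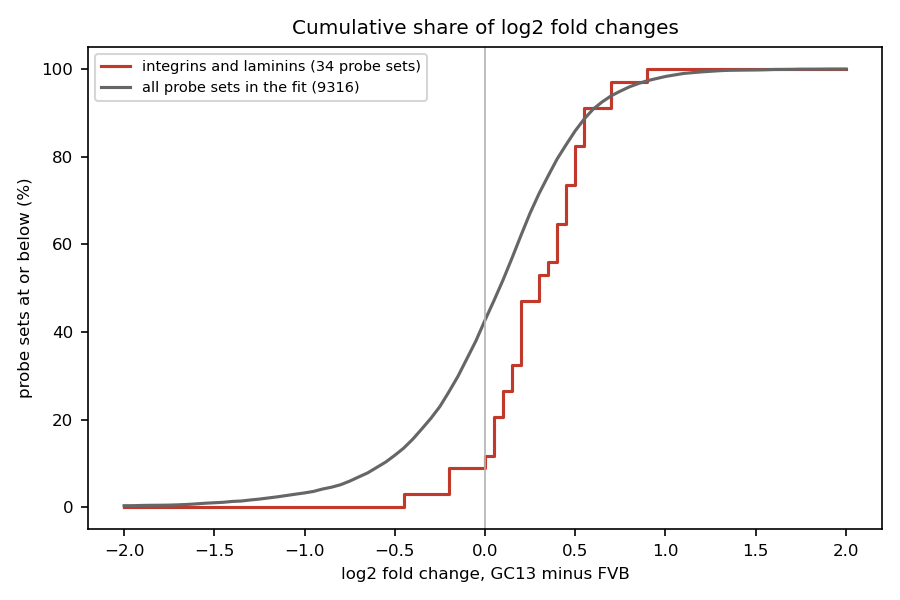
The horizontal axis is the log2 fold change, GC13 minus FVB, and the vertical axis the percent of probe sets at or below it, for the 34 integrin and laminin probe sets (red) and all 9316 probe sets in the fit (grey). The red curve lies to the right of the grey one around 0, with 4 members below 0, and the members stay between -0.49 and 0.86.

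The fit bounds the size of any difference for many members. For 20 of 34 members (58.8%, against 55.8% of all probe sets) the 95% interval lay between -1 and 1 on the log2(intensity + 2) scale. That scale understates the change of dim probe sets, so for them these limits stand for wider ones in intensity. The median SE of the members was 0.28. In simulated arrays, each probe set had its fitted spread in both groups alike, with independent noise. A log2 change of 1 was recovered there for 0% of 200 altered probe sets among 9316, and a log2 change of 2 for 96.6%. In the data the median SD over all probe sets was 0.41 in GC13 and 0.15 in FVB, so these shares are only a rough guide. The absence of calls does not show that the levels were equal. The plot of intervals gives all 34.

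**Figure D2:**
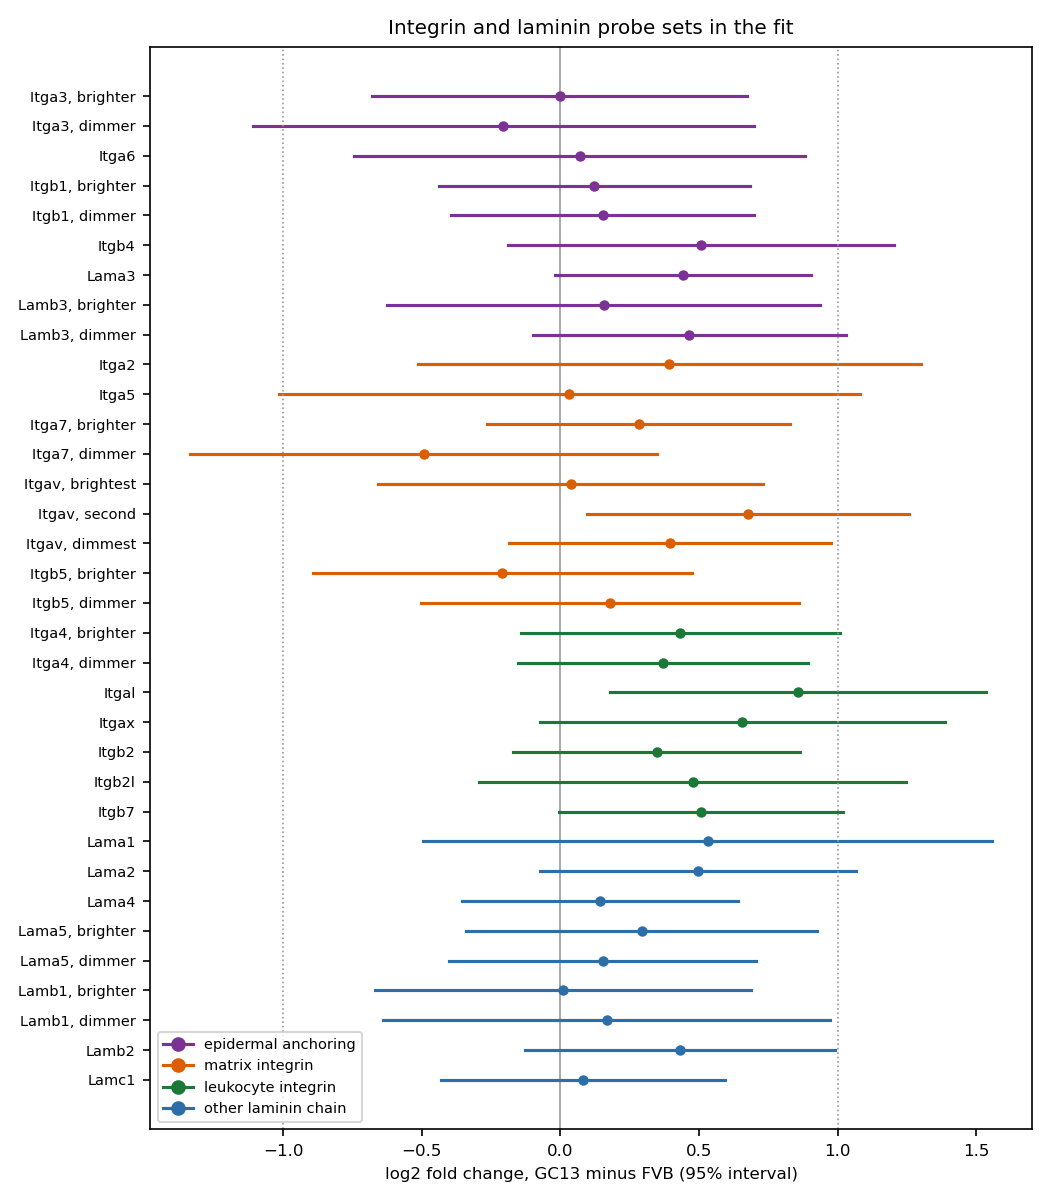
Each row is 1 probe set in the fit, the horizontal axis is its log2 fold change, GC13 minus FVB, points are estimates, bars are 95% intervals and colours are the 4 roles. Dotted lines mark -1 and 1. The intervals of 2 probe sets, of Itgal and Itgav, do not reach 0, neither passed the adjusted threshold, and Itgal was in the fit only through its GC13 mean.

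Among the chains that anchor the epidermis, the probe sets of the laminin chains and of integrin beta 4 had log2 fold changes between 0.16 and 0.51. Those of integrins alpha 3, alpha 6 and beta 1 lay between -0.21 and 0.15, and none of these differences passed the test. Lama3, the alpha chain of laminin-332, had intensities of 115, 83.7 and 137 in GC13, against 87.1, 83.0 and 84.1 in FVB. GC13 replicates 1 and 3 lay above every FVB array and replicate 2 lay inside the FVB range. Its log2 fold change was 0.44 (SE 0.20, 95% interval -0.020 to 0.90, adjusted p = 0.341 by limma). Lamb3, the beta chain of the same trimer, has 2 probe sets, and the brighter had 193, 76.9 and 234 in GC13, against 159, 138 and 134 in FVB. On that probe set replicate 2 lay below every FVB array and the other GC13 arrays above every one, and the log2 fold change was 0.16 (SE 0.34). The dimmer probe set had 87.3, 72.8 and 58.0 in GC13, against 54.5, 54.3 and 53.9 in FVB. Here all GC13 arrays lay above all FVB arrays, and the log2 fold change was 0.46 (SE 0.24, adjusted p = 0.405 by limma). In the names of 11 of the 45 member probe sets a suffix f, as here, marks that probes can be shared with related sequences. In the fit, the others with it are the brighter Itgb1, Itga7 and Lamb1, brightest Itgav, dimmer Itgb5 and Lama5, and Lamc1 probe sets. The second brightest Itgav, the dimmer Itgb1 and the Lama3 probe set carry other suffixes, i, r and s.

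Itgb4, the beta chain of the hemidesmosome integrin, had 411, 162 and 278 in GC13, against 207, 208 and 174 in FVB. The groups overlapped through replicate 2, which lay below all FVB arrays, whereas the other GC13 arrays lay above them. Its log2 fold change was 0.51 (SE 0.30, 95% interval -0.19 to 1.20, adjusted p = 0.464 by limma), and without GC13 replicate 2 it was 0.76 (adjusted p = 0.0773 by limma). Itga6, its alpha partner, had 103, 183 and 93.0 in GC13, against 136, 125 and 104 in FVB. Its pattern was the reverse: GC13 replicates 1 and 3 were lower than every FVB array and replicate 2 higher than every one, as in 1 of 34 members (2.94%, background 10.7%). The log2 fold change of Itga6 was 0.070 (SE 0.35, 95% interval -0.74 to 0.88) and turned to -0.32 without GC13 replicate 2 and -0.0037 without centring.

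Itgb1, the beta chain shared by many matrix receptors, was bright on every array. Its brighter probe set had 1384, 1405 and 1072 in GC13, against 1267, 1270 and 1170 in FVB, with overlapping groups. The log2 fold change was 0.12 (SE 0.24, 95% interval -0.44 to 0.68), and the value was -0.046 with quantile normalization and -0.043 without GC13 replicate 2. The dimmer Itgb1 probe set had 267, 350 and 340 in GC13, against 305, 334 and 264 in FVB, and a log2 fold change of 0.15 (SE 0.24). Itga3, the alpha chain that pairs with it at the epidermal base, had 57.2, 24.3 and 48.6 in GC13 on its brighter probe set, against 47.1, 49.5 and 34.5 in FVB. The groups overlapped, with a log2 fold change of -0.0029 (SE 0.29, 95% interval -0.68 to 0.67). The dimmer Itga3 probe set had 14.2, 12.1 and 38.1 in GC13, against 15.6, 23.6 and 34.3 in FVB, and a log2 fold change of -0.21 (SE 0.39). Over the 9 anchoring probe sets the median log2 fold change was 0.15, with 7 above 0 and 2 below. Suprabasal keratinocyte markers, 5 of 5 genes, summed to between 5838 and 10276 in GC13 and between 5392 and 5601 in FVB. Of these markers, 4 had log2 fold changes above 0 and 1, Ivl, lay below at -0.26, and 0 passed the test. For basal keratinocytes, 5 of 5 genes summed to between 768 and 932 in GC13 and between 724 and 800 in FVB, with Krt5, Krt14 and Krt15 below the intensity filter. Hair follicle markers, 7 of 7 genes, summed to between 10869 and 13285 in GC13 and between 13026 and 13701 in FVB, and 5 of the 7 had log2 fold changes below 0, with a median of -0.47. Dlx3, a hair follicle transcription factor, had 355, 355 and 403 in GC13, against 726, 719 and 663 in FVB. Its log2 fold change was -0.85 (SE 0.19, adjusted p = 0.127 by limma), or -0.91 without GC13 replicate 2 (adjusted p = 0.0177 by limma). In that setting 3 of 5 suprabasal genes, Krt1, Lor and Flg, and the basal gene Col17a1 passed as higher. Dlx3 was the only hair follicle gene that passed. Passing as higher too were 3 of 6 skeletal muscle, 2 of 6 dermal fibroblast and 1 of 6 endothelial genes. As lower, 2 of 6 macrophage genes passed. Of all probe sets, 6.04% then passed as higher and 8.84% as lower. The part of these cell types in the integrin and laminin values was not tested.

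**Figure D3:**
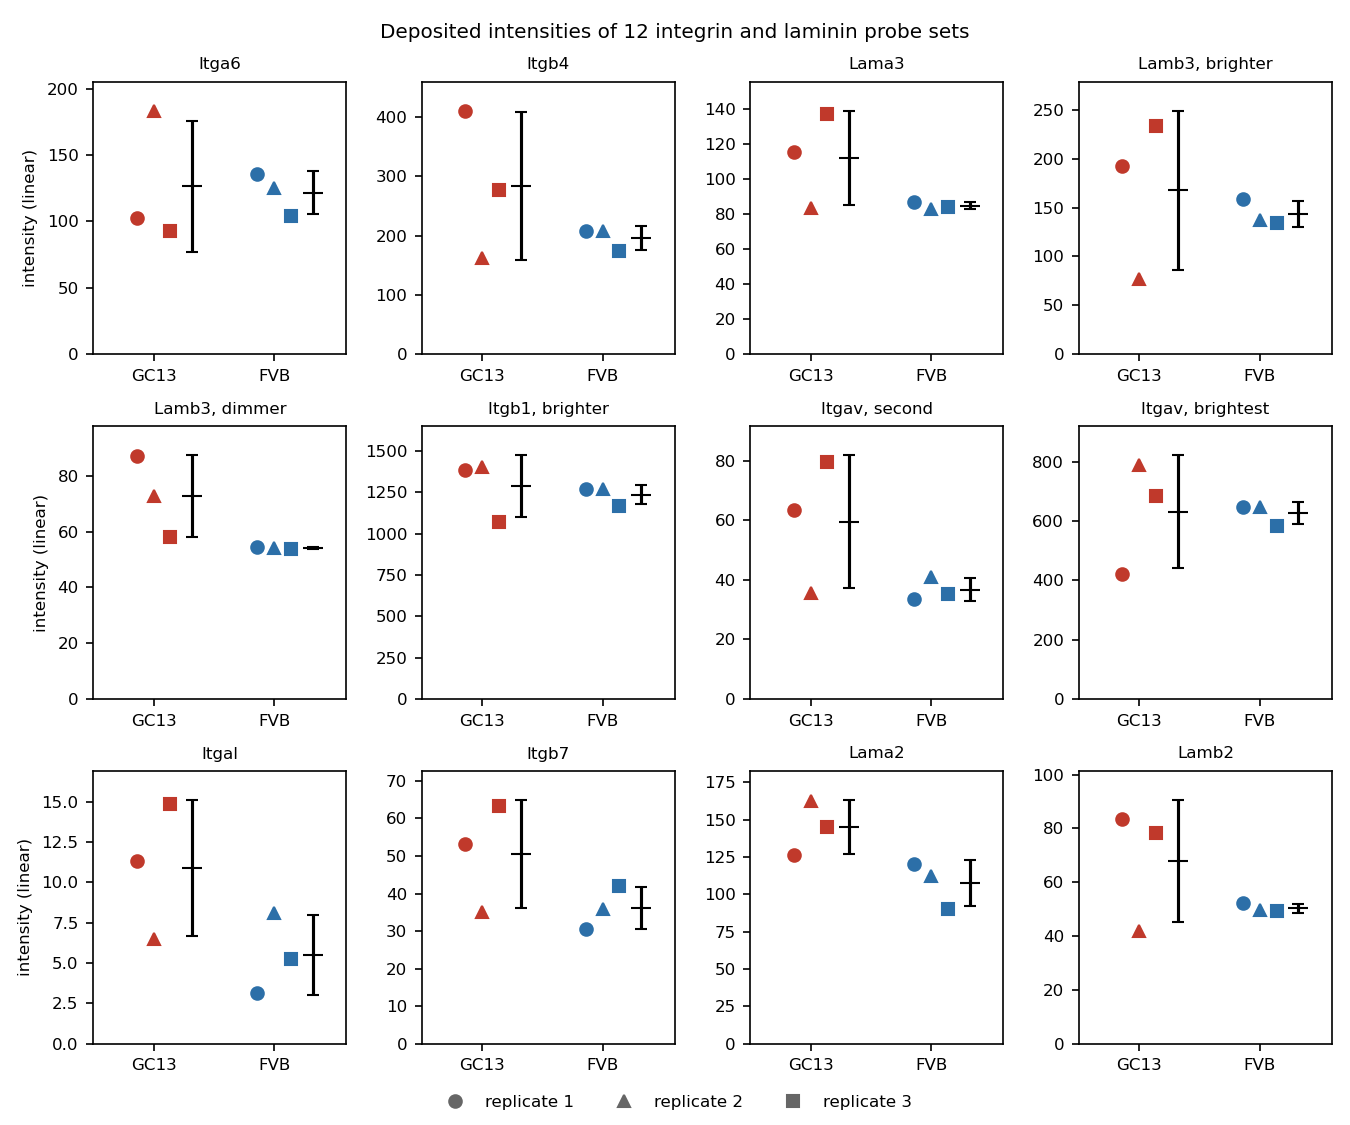
Deposited linear intensity (vertical axis, from 0) of 12 probe sets in GC13 (red, left) and FVB (blue, right). Symbols stand for replicates 1, 2 and 3, and the bar beside them is the mean with 1 SD (n = 3). The 3 FVB arrays lie close together for Lama3, Lamb3 and Lamb2, while GC13 replicate 2 (triangle) lies away from replicates 1 and 3 in most panels.

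Of the matrix-binding integrins outside the epidermal anchor, 7 of 9 probe sets in the fit had log2 fold changes above 0 and 2 below, with a median of 0.18, none passed the test, and the probe sets of Itgb5 and of Itga7 differed in sign. Itgav, whose product binds vitronectin, fibronectin and latent TGF-beta, has 3 probe sets in the fit. The brightest had 422, 789 and 686 in GC13, against 648, 649 and 585 in FVB, and a log2 fold change of 0.038 (SE 0.30), which was -0.036 without centring and -0.098 with quantile normalization. The second brightest had 63.5, 35.5 and 79.5 in GC13, against 33.7, 41.1 and 35.2 in FVB. Its GC13 replicates 1 and 3 were above every FVB array, replicate 2 lay inside the FVB range, and the log2 fold change was 0.68 (SE 0.25, 95% interval 0.095 to 1.26, adjusted p = 0.264 by limma). Without GC13 replicate 2 this probe set passed, at 0.90 (adjusted p = 0.0216 by limma). The dimmest had 11.9, 8.27 and 16.7 in GC13, against 11.0, 9.98 and 6.78 in FVB, and a log2 fold change of 0.39 (SE 0.25). The arrays were ordered differently on the first and second Itgav probe sets: GC13 replicate 2 was highest on the first and lowest of its group on the second.

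Itgb5, which pairs with the alpha V chain, went both ways. Its brighter probe set had 243, 95.3 and 205 in GC13, against 201, 211 and 203 in FVB. Replicate 2 alone lay far below the FVB arrays, and the log2 fold change was -0.21 (SE 0.30), or 0.098 without that array. The dimmer Itgb5 probe set had 49.9, 22.9 and 59.6 in GC13, against 33.9, 35.2 and 46.0 in FVB, and 0.18 (SE 0.29) on the log2 fold change scale. Itga7, the laminin receptor chain of muscle, had 61.8, 46.2 and 75.1 in GC13 on its brighter probe set, against 47.0, 42.9 and 67.7 in FVB, a log2 fold change of 0.28 (SE 0.24). On the dimmer one it had 35.7, 15.4 and 56.8 in GC13, against 39.2, 46.3 and 60.8 in FVB, and its log2 fold change of -0.49 (SE 0.36, adjusted p = 0.556 by limma) was the lowest of the 34. Without GC13 replicate 2 it was at -0.11. Skeletal muscle markers, 6 of 6 genes, summed to between 2650 and 3067 in GC13 and between 2326 and 2476 in FVB. Of these markers, 5 had log2 fold changes above 0 and 1 below, and their part in the Itga7 values was not tested. Itga2, a collagen receptor chain, had intensities between 6.82 and 15.5 in GC13 and between 4.64 and 17.0 in FVB. Itga5, the fibronectin receptor chain, had 18.4, 6.17 and 3.58 in GC13, against 8.54, 8.69 and 6.99 in FVB, and a log2 fold change of 0.032 (SE 0.45) that was -0.041 without centring and -0.12 with quantile normalization.

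Leukocyte integrins were dim, and none of their 7 probe sets in the fit passed the test. All 7 had log2 fold changes above 0, against 57.3% of all probe sets, but Itgal and Itgb2l were in the fit only through GC13, so the count is no support for a direction. With no filter, 12 of 12 leukocyte probe sets lay above 0, against 63.0% of all probe sets, with a median of 0.40. Of these 12, 5 were too dim for the fit. Over the whole array, too, dim probe sets lay above 0 more often than those in the fit. For these 5, 63.0% is thus too low a background, and the 12 of 12 is no support for a direction either. Before centring, Itgam and the dim Itgb7 probe set had lower means in GC13, at 3.42 against 3.70 and 1.37 against 1.46. The 7 in the fit had mean intensities from 8.19 to 43.3 over the 6 arrays. Itgal, the alpha chain of LFA-1 that lymphocytes use to bind ICAMs, had 11.3, 6.51 and 14.9 in GC13, against 3.15, 8.06 and 5.23 in FVB. Replicates 1 and 3 of GC13 lay above the FVB arrays and replicate 2 among them, and the log2 fold change of 0.86 (SE 0.29, 95% interval 0.18 to 1.53, adjusted p = 0.233 by limma) was the largest of the members in the fit, for a gene whose FVB mean lay below the filter's limit. Itgb7, the partner of the alpha 4 and alpha E chains, had 53.3, 35.0 and 63.3 in GC13, against 30.7, 35.8 and 41.9 in FVB. It overlapped again only through replicate 2, with a log2 fold change of 0.51 (SE 0.22, 95% interval -0.0057 to 1.02, adjusted p = 0.329 by limma). Itgax, the CD11c chain of dendritic cells, had 33.0, 17.7 and 38.4 in GC13, against 11.6, 19.4 and 26.5 in FVB, and a log2 fold change of 0.66 (SE 0.32, adjusted p = 0.367 by limma).

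The remaining leukocyte members were Itgb2, the beta chain of LFA-1, with 0.35 (SE 0.22), Itgb2l, a gene related to it, with 0.48 (SE 0.33), and 2 probe sets of Itga4, with 0.43 (SE 0.25) and 0.37 (SE 0.23), all on the log2 fold change scale. Itga4 encodes the alpha chain of the VCAM-1 receptor. General leukocyte markers, 6 of 6 genes, summed to between 261 and 301 in GC13 and between 209 and 297 in FVB, with 3 log2 fold changes above 0 and 3 below. Macrophage markers, 6 of 6 genes, summed to between 301 and 379 in GC13 and between 420 and 458 in FVB, with 2 above 0 and 4 below. C1qa had 31.8, 8.12 and 18.4 in GC13, against 65.1, 67.1 and 83.6 in FVB, without overlap. Its log2 fold change was -1.87 (SE 0.37, adjusted p = 0.0820 by limma). C1qb, at -0.56 (SE 0.21), was also lower without overlap, whereas Adgre1, at 0.76 (SE 0.31), was higher without overlap. Mast cell markers, 4 of 4 genes, summed to between 1005 and 1308 in GC13 and between 766 and 808 in FVB. Of the 3 mast cell genes in the fit, 2 lay above 0 and 1 below. Of the T cell markers, the receptor genes Cd3e, Cd3g and Cd3d lay below the intensity filter, at no more than 8.95 in GC13 and 4.68 in FVB. Thy1, a surface protein of T cells and also of fibroblasts, had 374, 245 and 230 in GC13, against 186, 165 and 169 in FVB, without overlap, and a log2 fold change of 0.74 (SE 0.25, adjusted p = 0.233 by limma). The part of these cells in the leukocyte integrin values was not tested.

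Laminin chains beyond laminin-332 had 9 probe sets in the fit, of which none passed the test. All 9 log2 fold changes lay above 0, against 57.3% of all probe sets, with a median of 0.17, and Lama1 was in the fit only through GC13. That direction did not hold under other scalings for Lamb1, whose brighter probe set had 0.0096 (SE 0.29) and was at -0.064 without centring and -0.041 with quantile normalization. Of the 9, 6 lay above 0 without GC13 replicate 2 (52.0% of all probe sets) and 6 with array weights (54.1%). With any other array left out, 7 to 9 lay above 0, against 55.5% to 61.9% of all probe sets. Lama2, the alpha chain of muscle and nerve laminin, had 126, 163 and 145 in GC13, against 120, 112 and 90.4 in FVB. All GC13 arrays were above all FVB arrays, and the log2 fold change was 0.50 (SE 0.25, 95% interval -0.074 to 1.07, adjusted p = 0.381 by limma). Lama2 and the dimmer Lamb3 probe set were the 2 of 34 members (5.88%) whose intensities were all higher in GC13, against 10.7% of all probe sets. For the reverse, 0 of 34 members were lower on every GC13 array, against 12.3%.

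Lamb2, a beta chain of vessel, muscle and nerve basement membranes, had 83.6, 42.0 and 78.2 in GC13, against 52.2, 49.7 and 49.2 in FVB. Replicate 2 was below every FVB array and replicates 1 and 3 above, and the log2 fold change was 0.43 (SE 0.24, 95% interval -0.13 to 0.99, adjusted p = 0.436 by limma). Without GC13 replicate 2 it passed at 0.64 (adjusted p = 0.0419 by limma). Lama5, the alpha chain of laminin-511, had 229, 122 and 288 in GC13 on its brighter probe set, against 153, 164 and 202 in FVB, and 0.29 (SE 0.27) as its log2 fold change. Its dimmer probe set had 25.8, 37.2 and 34.6 in GC13, against 28.7, 29.8 and 32.6 in FVB, with 0.15 (SE 0.24).

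Lama4, an alpha chain of vessel laminin, had 246, 174 and 319 in GC13, against 225, 243 and 217 in FVB, and its log2 fold change was 0.14 (SE 0.21, 95% interval -0.36 to 0.64). Lamc1, the gamma chain of most laminins, had 201, 126 and 239 in GC13, against 169, 190 and 185 in FVB, with 0.081 (SE 0.22). For both, GC13 replicate 2 was the lowest of the 6 arrays. The beta 1 chain gene Lamb1 showed the opposite order. Its brighter probe set had 177, 229 and 135 in GC13, against 174, 202 and 178 in FVB, and its dimmer one had 103, 193 and 112 in GC13, against 140, 134 and 96.8 in FVB, with a log2 fold change of 0.17 (SE 0.35). Lama1, an alpha chain of embryonic basement membranes, was dim, with 11.0, 4.0 and 10.8 in GC13 and 1.91, 5.36 and 11.4 in FVB. Endothelial markers, 6 of 6 genes, summed to between 821 and 1057 in GC13 and between 569 and 684 in FVB, with 5 log2 fold changes above 0 and 1 below. The lower one, Cldn5, had 101, 61.9 and 83.6 in GC13, against 127, 140 and 135 in FVB. Dermal fibroblast markers, 6 of 6 genes, summed to between 9216 and 11013 in GC13 and between 7285 and 8009 in FVB, with all 6 log2 fold changes above 0. The part of these cell types in the laminin values was not tested.

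The GC13 replicates disagreed for many members, as they did over the whole array. In 9 of 34 members (26.5%, background 10.9%) GC13 replicates 1 and 3 lay above every FVB array while replicate 2 lay below every one. These were Itgb4, the brighter Lamb3 and Lama5 probe sets, Lama4, Lamb2, Lamc1, Itgb2, Itgb2l and the dimmer Itgb5 probe set. The spread between replicates was larger in GC13 than in FVB for 27 of 34 members (79.4%, background 84.9%), with a median SD of 0.39 in GC13 and 0.18 in FVB on the log2 scale. Relative to the FVB mean, the members had medians of 0.38, 0.13 and 0.41 on GC13 replicates 1, 2 and 3, where all probe sets had 0.066, 0.21 and -0.019. Without GC13 replicate 2, RNA quality and possibly sex cannot be told apart from the line. In that setting 2 of 34 members passed as higher (5.88%, background 6.04%), the second brightest Itgav probe set and Lamb2, and 0 passed as lower (background 8.84%). Among those that did not pass, leaving out that array gave log2 fold changes of 0.54 for the brighter Lamb3, 0.55 for the brighter Lama5 and 0.48 for the dimmer Itgb5 probe set, and of 0.80 for Itgb2l, 0.80 for Lama1 (0.53 with it), 0.31 for Lama2, 0.27 for Lama4 and 0.25 for Lamc1, each over 1.5 times above or below the value with it. Array weights estimated by limma were 4.11, 0.107 and 0.328 for GC13 replicates 1, 2 and 3. The FVB replicates had 2.77, 2.17 and 1.16. The weighted GC13 values thus rest mostly on replicate 1. In that setting 13 of 34 members passed as higher (38.2%, background 22.0%) and 1 as lower (2.94%, background 19.3%).

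**Figure D4:**
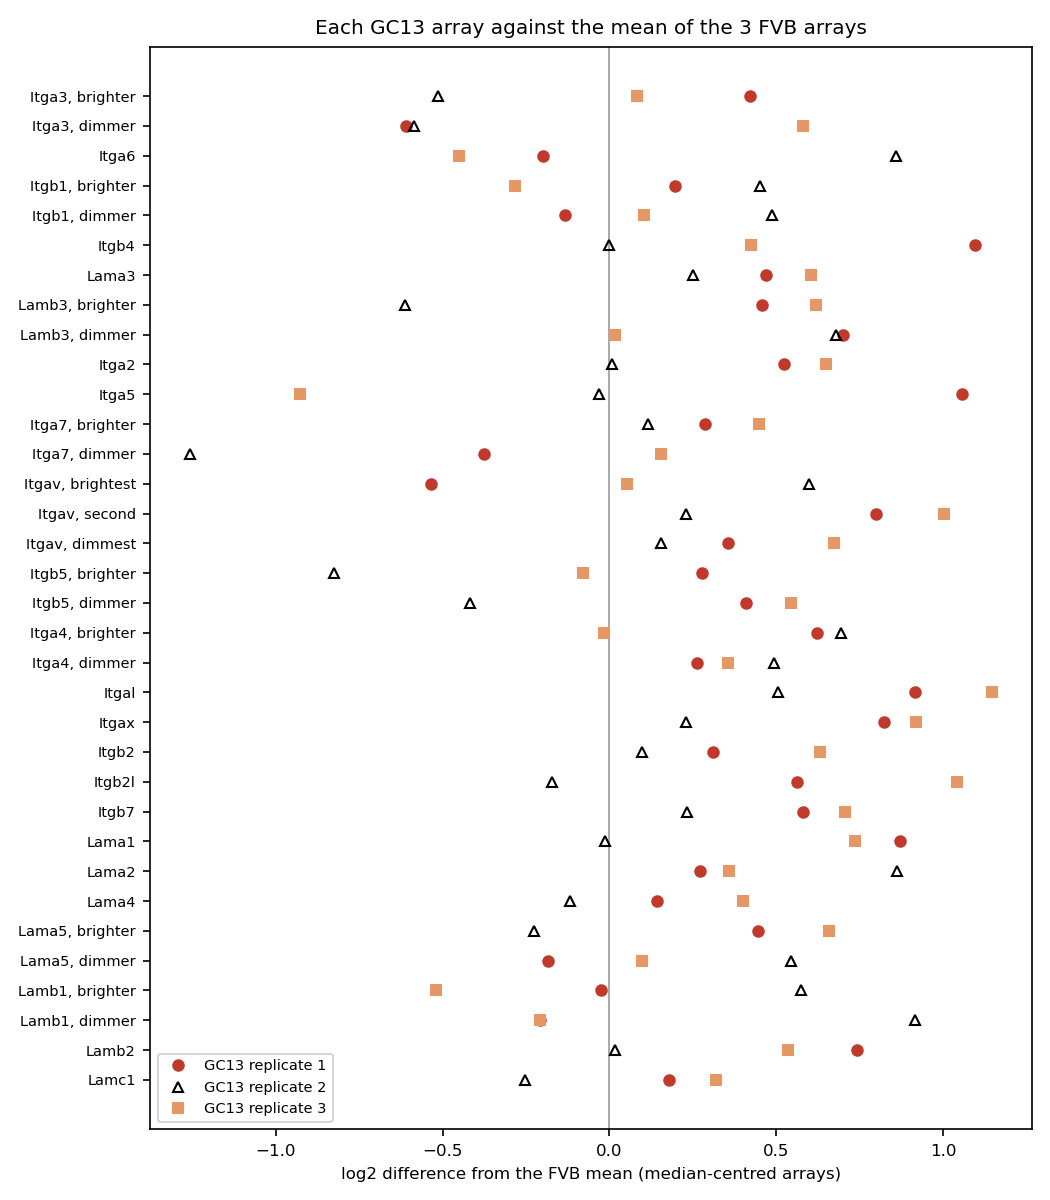
Each row is 1 probe set, and the horizontal axis is the log2 difference of a GC13 array from the mean of the 3 FVB arrays after centring. Filled circles and squares are GC13 replicates 1 and 3, and open triangles are replicate 2. Replicate 2 lies lowest for Itgb4 and the brighter Lamb3 probe set and highest for Itga6, Lama2 and both Lamb1 probe sets.

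The 11 member probe sets left out by the filter on low values had single intensities between 0.356 and 9.20. They include all probe sets of Itga8, Itgb3, Itgae and Itgam, which encode a receptor chain of mesenchyme, the platelet and vessel partner of alpha V, the alpha E chain of epithelial T cells and the CD11b chain of myeloid cells. The others are dim further probe sets of Itga4, Itga7, Itgb7, Lama4 and Lamc1. Of these, the second Lamc1 probe set had 9.20, 1.54 and 8.13 in GC13, against 1.26, 1.91 and 2.67 in FVB. At such intensities a level cannot be set apart from background with the values deposited.

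Partners of the integrins and laminins, from lists chosen with earlier results of these data known, had no member past the threshold in either direction. Each gene of these lists is given by its brightest probe set only, whereas the background shares cover all probe sets. Without GC13 replicate 2, 0 of 13 basement membrane genes, 2 of 4 hemidesmosome and anchoring genes, 2 of 18 adaptors and kinases and 1 of 17 ligands passed as higher. In that setting 1 adaptor and 1 ligand passed as lower. Of all probe sets, 6.04% then passed as higher and 8.84% as lower, and lists this short give no reliable share. Of 13 basement membrane genes in the fit, 12 had log2 fold changes above 0 and 1 below, against 57.3% of all probe sets above 0. Their median was 0.31, against 0.081 over all probe sets. Col4a2, a collagen IV chain, had 1238, 982 and 1111 in GC13, against 787, 729 and 818 in FVB, without overlap, and a log2 fold change of 0.58 (SE 0.20, adjusted p = 0.230 by limma). Its partner Col4a1 had 0.48 (SE 0.23) and Col18a1, a collagen of vessel and epithelial basement membranes, 0.47 (SE 0.21). Of 4 hemidesmosome and anchoring genes, 2 lay above 0 and 2 below. Col7a1, the anchoring fibril collagen, had 0.65 (SE 0.25) and the hemidesmosome collagen Col17a1 0.49 (SE 0.24), and both passed without GC13 replicate 2, at 0.88 (adjusted p = 0.0206 by limma) and 0.69 (adjusted p = 0.0424 by limma). The log2 fold change of Plec, the linker of integrin beta 4 to keratin, was -0.66 (SE 0.27, adjusted p = 0.303 by limma). Plec had 81.6, 128 and 136 in GC13, against 170, 177 and 221 in FVB, so that the groups did not overlap.

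Of 18 adaptors and kinases of integrin adhesions, 12 lay above 0 and 6 below, with a median of 0.25. Vinculin, from Vcl, had a log2 fold change of 0.46 (SE 0.23), the caveolin gene Cav1 0.39 (SE 0.21), and the actin cross-linker gene Actn4 -0.52 (SE 0.28). Without GC13 replicate 2, Actn4 passed at -0.80 (adjusted p = 0.0343 by limma), as did the adaptor genes Tgfb1i1 at 0.65 (adjusted p = 0.0347 by limma) and Bcar1 at 0.60 (adjusted p = 0.0394 by limma). Of 17 integrin ligands other than laminins, 10 lay above 0 and 7 below, with a median of 0.10. Tnc, which encodes the matrix glycoprotein tenascin-C, had 295, 282 and 282 in GC13, against 140, 132 and 139 in FVB, and a log2 fold change of 1.13 (SE 0.20, adjusted p = 0.0652 by limma), or 1.04 without GC13 replicate 2 (adjusted p = 0.0132 by limma). The fibronectin gene Fn1 had 0.62 (SE 0.25). Vtn, which encodes vitronectin, was dim at 3.15, 9.99 and 2.28 in GC13, against 19.4, 20.7 and 17.6 in FVB, a log2 fold change of -1.65 (SE 0.44, adjusted p = 0.152 by limma), or -2.20 without GC13 replicate 2 (adjusted p = 0.00402 by limma).

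The promoters of the members were set beside these values because Hoxc13 is a DNA-binding factor. A window of 250 bases before to 50 bases after the start was available from RefSeq (GRCm38.p6) for 17 of the 28 genes, in 19 windows. The letters TTTAT or TTAAT, core sequences described for HOXC13, were searched on both strands (ATAAA and ATTAA on the other), and occurrences of the cores may overlap. They occurred in 4 of 19 member windows (21.1%), against 50.8% of 32851 promoter windows, and the member windows had a median GC content of 59.3%, against 52.7% for all. The 3 windows printed are those of Lamb2 and Lama2, which hold a core and belong to genes among the 8 higher members with the smallest p, and of Itgav, which holds none, with the cores in capitals. They were chosen after their values were seen. The Lamb2 window is chr9:108479612-108479911, plus strand, the Lama2 window chr10:27616893-27617192, minus strand, and the Itgav window chr2:83724147-83724446, plus strand.
Lamb2: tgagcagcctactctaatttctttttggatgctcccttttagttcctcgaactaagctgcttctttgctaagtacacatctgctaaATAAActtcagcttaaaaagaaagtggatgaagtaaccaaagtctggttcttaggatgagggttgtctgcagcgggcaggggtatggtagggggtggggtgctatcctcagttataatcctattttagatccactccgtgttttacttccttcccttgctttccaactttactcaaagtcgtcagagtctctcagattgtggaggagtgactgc
Lama2: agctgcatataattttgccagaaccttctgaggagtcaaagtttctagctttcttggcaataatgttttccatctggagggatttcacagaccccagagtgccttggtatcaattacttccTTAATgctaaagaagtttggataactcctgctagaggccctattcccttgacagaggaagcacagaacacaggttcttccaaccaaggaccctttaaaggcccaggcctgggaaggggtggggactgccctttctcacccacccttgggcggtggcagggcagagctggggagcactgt
Itgav: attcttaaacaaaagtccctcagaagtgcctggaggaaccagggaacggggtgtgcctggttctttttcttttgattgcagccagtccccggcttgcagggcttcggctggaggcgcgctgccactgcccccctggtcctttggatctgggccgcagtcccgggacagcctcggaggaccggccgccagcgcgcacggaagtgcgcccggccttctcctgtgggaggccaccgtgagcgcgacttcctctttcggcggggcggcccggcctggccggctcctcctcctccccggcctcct
The core of Lamb2 begins at position -164 and that of Lama2 at -129 from the start site. Such a match is a description of letters and not a site of binding, and the windows without one say nothing on Hoxc13.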

How the data were processed

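Total RNA of whole skin from 3 GC13 and 3 FVB samples was measured on 6 arrays. The authors deposited linear intensities for 12488 probe sets. Which software and background correction gave them is not stated by the sources at hand, and detection calls were not used. Judged by the values, arrays had been scaled to a common mean, so that the mean without the highest and lowest 2% was about 100. Probe sets were named from the supplied platform annotation, with symbols updated by Entrez identifier from RefSeq (GRCm38.p6). All 45 members matched. The 66 control probe sets were left out, and log2(intensity + 2) was taken, where 2 is the rounded 10th percentile (1.6). Arrays were centred on their medians, which differed by up to 0.345. The dimmest 25% by mean over the arrays (an intensity up to 6.86) were removed, leaving 9316. The test was limma's moderated test (lmFit and eBayes of version 3.58.1, R 4.3.3) of GC13 against FVB. It was two-sided, and p-values were adjusted over those probe sets by Benjamini-Hochberg. The code was tested on simulated data. Alternatives changed the pseudocount, filter, scaling, variance trend, array weights and replicate block, or left out each sample.

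The members and lists were chosen with earlier results of these data known. In the pathway and cell type marker lists, each gene stands by its brightest probe set, and its other probe sets were not used. Values per array are given for the 8 higher members with the smallest p, all 4 lower ones, the epidermal anchoring genes and genes whose probe sets differ in sign. From each pathway list the 3 genes with the smallest p are given by log2 fold change, some also by array. Further values were added after they were seen.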

Additional observations from a re-analysis of the deposited data

How the results depend on the processing

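Of 498 values of single members under 15 alternatives, 440 kept their direction and their side of the threshold, 15 passed it in the same direction, and 43 changed sign, in 14 of the 34 members, none of which had a main value above 0.21 in size. With limma array weights, where the GC13 values rest mostly on replicate 1, 13 members passed as higher and 1 as lower. In that setting 3840 of all probe sets passed. With a pseudocount of 16, 83 of all probe sets passed, with 32 it was 119, and with the replicate block it was 80, against 47. The block added no call among the members. The replicate numbers were not shown to pair the samples: the deviations of same-numbered arrays correlated at -0.070, 0.18 and 0.36, and not every array correlated best with its own number. Leaving out 1 array gave 0 to 2 members higher and from 0 to 1387 of all probe sets, the most without GC13 replicate 2. Of all probe sets, 6 passed without GC13 replicate 1 and 13 without GC13 replicate 3. With any 1 of the 3 FVB arrays left out, 0 passed in limma, while 765 to 949 had an unadjusted p under 0.05. The median log2 fold change of the members ran from 0.13 at a pseudocount of 32 to 0.34 without GC13 replicate 2. The missing detection calls leave the signal over background of dim members unknown.

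Log2 fold changes changed sign as follows, with the probe set of a gene in brackets, and the cause was not tested. At a pseudocount of 16, Itga3 (brighter) had 0.0078 and Lamb1 (brighter) -0.0056, and at 32 they had 0.011 and -0.013. Without centring, Itga6 had -0.0037, Itga5 -0.041, Itgav (brightest) -0.036 and Lamb1 (brighter) -0.064. With quantile normalization, Itga3 (brighter) had 0.022, Itgb1 (brighter) -0.046, Itga5 -0.12, Itgav (brightest) -0.098 and Lamb1 (brighter) -0.041. With array weights, Itga3 (brighter) had 0.30, Itga6 -0.25, Itgb1 (dimmer) -0.14, Itgav (brightest) -0.50, past the threshold, Itgb5 (brighter) 0.22, Lama5 (dimmer) -0.13 and Lamb1 -0.056 (brighter) and -0.26 (dimmer).

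Leaving out 1 array gave a range of -0.22 to 0.25 for Itga3 (brighter), -0.60 to 0.040 for Itga3 (dimmer) and -0.32 to 0.33 for Itga6. Ranges were -0.043 to 0.32 for Itgb1 (brighter), -0.015 to 0.30 for Itgb1 (dimmer), -0.077 to 0.54 for Lamb3 (brighter), -0.48 to 0.51 for Itga5 and -0.24 to 0.32 for Itgav (brightest). They were -0.45 to 0.10 for Itgb5 (brighter), -0.0043 to 0.48 for Itgb5 (dimmer), -0.043 to 0.32 for Lama5 (dimmer), -0.27 to 0.27 for Lamb1 (brighter), -0.21 to 0.36 for Lamb1 (dimmer) and -0.037 to 0.25 for Lamc1.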
